A study of Mus musculus with 48 samples.

Results

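The genes described here make heme and the proteins that carry it in red cells. They are *Alas1*, *Alas2*, *Urod*, *Cpox*, *Ppox* and *Fech*, which encode enzymes of the heme pathway, *Hba-a1* and *Hbb-b1*, which encode the alpha- and beta-globin chains of haemoglobin, and *Slc4a1*, which encodes the anion exchanger of the red cell membrane (band 3). A member was any probe whose accession maps to one of these 9 symbols, which gave 10 probes of 8 genes out of 41174 probes and 18434 named genes on the array. No probe mapped to *Hbb-b1*. The 4 probes of *Hbb-bt*, the adult beta-globin gene under which their accession is now listed, are therefore described beside the members. The alpha-globin probe may also take up RNA of the near-identical *Hba-a2*, and the beta-globin probes that of *Hbb-bs*, so each is read as a signal of the adult globin type rather than of 1 gene.

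RNA of liver and colon came from C57/BL6 offspring aged 12 weeks, and every dam and every pup ate a high-fat diet. The paper describes diet H as supplemented with selenium and folate and diet L as marginally deficient in both. A group is named by the dam's diet through pregnancy and lactation, followed by the pup's own diet from weaning on. The groups are thus HH (H throughout), HL (L after weaning), LH (L before weaning) and LL (L throughout). There were 5 HH livers, 2 arrays of one animal being averaged, 6 livers of HL, LH and LL each, and 6 colons per group. The labels do not say which pups shared a dam, so the tests measure the spread between pups. All values are log2 ratios of mouse RNA (Cy3) over one reference RNA (Cy5). The paper calls this reference pooled intestinal and liver RNA and the array labels call it multi-organ RNA, so the ratios are read between groups and not as levels.

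Spots well above background in Cy3 made up 55.1 to 66.0% of each liver array and 66.8 to 73.7% of each colon array. Every member probe and every *Hbb-bt* probe was well above background in both channels on all 24 arrays of both tissues, and none was saturated. The tissue labels matched their markers, since 8 of 8 hepatocyte genes with a probe were called higher in liver and 10 of 10 genes of colon epithelium and muscle were called lower. The study describes the offspring as male. On 1 liver and 3 colon arrays *Xist*, the RNA of the inactive X chromosome, was present without the Y-linked *Eif2s3y*. These were liver HL replicate 2, colon HL replicate 5 and colon LL replicates 1 and 3. On a further 1 liver (LL replicate 6) and 3 colon arrays (HH replicates 1 and 5, LL replicate 5) both were present. No LH array was among them, so in colon this signature and the diet are not fully separate.

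Heme is built from glycine and succinyl-CoA in a chain of steps that starts and ends in mitochondria. The first step, which limits the rate, is run by *Alas1* in most tissues, among which liver uses much heme for cytochrome P450 enzymes, and by *Alas2* in cells that become red cells. *Urod* and *Cpox* then shape the porphyrin ring, *Ppox* oxidises it and *Fech* inserts iron. In an adult mouse red cells are made in bone marrow and spleen, and young red cells in the blood still carry globin and *Alas2* RNA into every tissue that holds blood. In whole tissue, fewer cells of a type and less RNA per cell cannot be told apart.

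The 250 bases before the start of 4 of these genes are shown because they stand for the globin genes and the pathway enzymes described below. They are RefSeq sequences on GRCm38.p6, written 5′ to 3′ on the strand of the gene. Capitals mark the words AGATAA and TGATAA, which GATA factors of red cell precursors can bind, CCNCNCCC, a form of the CACCC box bound by Klf1, TATAAA and CCAAT, each searched on both strands. The sequences lie at chr11:32283422-32283671 on the plus strand (*Hba-a1*), chr7:103813924-103814173 on the minus strand (*Hbb-bt*), chrX:150547167-150547416 on the plus strand (*Alas2*) and chr16:58669958-58670207 on the plus strand (*Cpox*).
Hba-a1: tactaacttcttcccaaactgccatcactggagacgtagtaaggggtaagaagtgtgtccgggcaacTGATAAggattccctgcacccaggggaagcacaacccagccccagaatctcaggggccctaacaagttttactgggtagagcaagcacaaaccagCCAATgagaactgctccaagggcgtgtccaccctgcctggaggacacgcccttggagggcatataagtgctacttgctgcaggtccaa
Hbb-bt: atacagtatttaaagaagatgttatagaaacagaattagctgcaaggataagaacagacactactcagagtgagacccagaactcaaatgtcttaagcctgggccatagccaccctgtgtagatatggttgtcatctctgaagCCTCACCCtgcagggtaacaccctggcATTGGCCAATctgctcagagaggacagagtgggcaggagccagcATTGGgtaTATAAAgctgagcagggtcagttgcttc
Alas2: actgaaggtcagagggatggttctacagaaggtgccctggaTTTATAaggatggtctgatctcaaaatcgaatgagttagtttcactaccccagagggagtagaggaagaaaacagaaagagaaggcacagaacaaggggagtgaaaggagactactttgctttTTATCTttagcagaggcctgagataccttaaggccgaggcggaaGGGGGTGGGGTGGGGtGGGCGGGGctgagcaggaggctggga
Cpox: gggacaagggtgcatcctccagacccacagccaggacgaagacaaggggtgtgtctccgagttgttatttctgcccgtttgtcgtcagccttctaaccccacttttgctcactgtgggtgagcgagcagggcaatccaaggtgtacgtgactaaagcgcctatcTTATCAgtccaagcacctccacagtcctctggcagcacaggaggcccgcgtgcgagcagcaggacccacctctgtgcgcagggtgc
Of the promoters in the RefSeq table, 32851 in all, 9.99% held AGATAA in these 250 bases, 7.94% held TGATAA and 16.6% held either. CCNCNCCC was found in 45.9%, TATAAA in 12.4% and CCAAT in 33.8%. Upstream of *Hba-a1* there was 1 TGATAA, 183 bases before the start, and 1 CCAAT. Upstream of *Hbb-bt* there were 3 CCAAT words, 2 of which touch each other, 1 CCNCNCCC and 1 TATAAA, 28 bases before the start. *Alas2* held AGATAA on the opposite strand, 86 bases before the start, 4 CCNCNCCC words on the opposite strand, 3 of which overlap, and TATAAA on the opposite strand. *Cpox* held TGATAA on the opposite strand and no other word searched. Neither start of *Alas1*, nor the promoters of *Urod* and *Ppox*, held a GATA word, and those of *Slc4a1* and *Fech* were not analysed here. These matches are letters only and not sites of binding.

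In the comparison of the tissues over all diets, each member was higher in liver than in colon, from a log2 difference of 4.29 for *Alas2* down to 0.61 for *Ppox*, which was at -0.018 when arrays were only centred on their median. With the call at a fold change over 1.5 and an adjusted p under 0.05 (limma, Benjamini-Hochberg over all probes, slide as a random block), 10 of 10 member probes and 4 of 4 *Hbb-bt* probes were called higher in liver. Over the whole array 14.6% of probes were called higher in liver and 15.7% lower, and the median difference of all probes was 0.01. Liver and colon lay on different slides, so apart from the random block the tissue and its slides cannot be told apart. The block used 1 correlation, 0.207, for all probes, so the SE and p-values do not follow the slide spread of single genes.

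**Figure D1:**
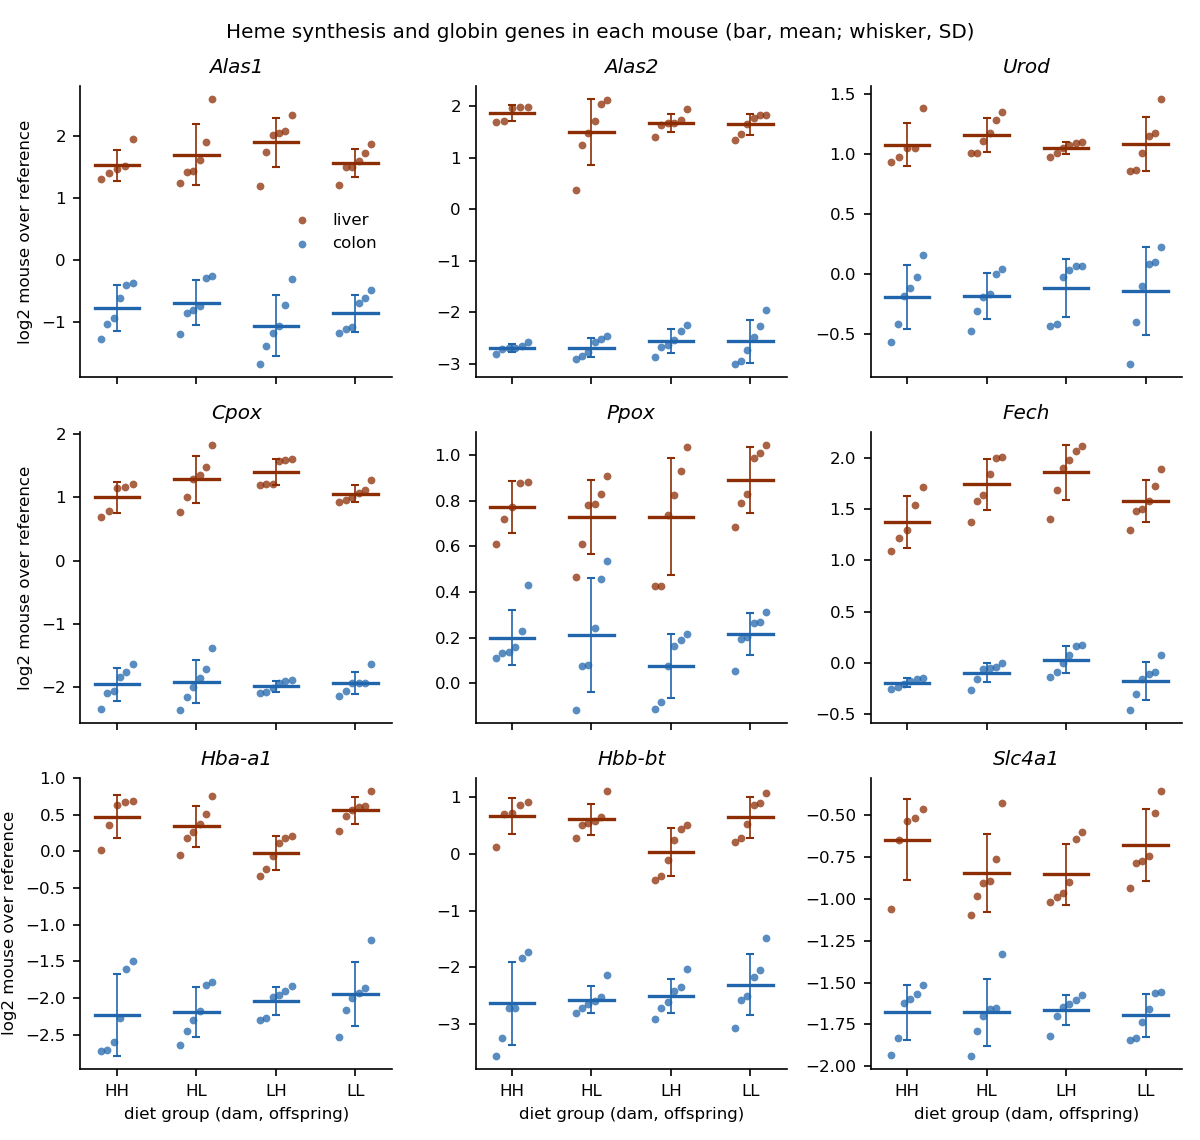
Log2 ratio of mouse over reference of each gene (vertical axes, which differ between panels) in every mouse of the 4 diet groups (horizontal axes), with liver in brown and colon in blue, the bar at the group mean and the whisker at 1 SD. Liver lies above colon in nearly every panel, the *Ppox* values of the tissues meet, and the LH livers are lowest for *Hba-a1* and *Hbb-bt*.

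Among the members the widest gap was that of *Alas2*, a gene of the first step. *Alas2*, the form of red cell precursors, ranged from 0.37 to 2.11 over the 23 livers, with a median of 1.70, and from -3.01 to -1.95 over the 24 colons, with a median of -2.66. The lowest liver was thus far above the highest colon, and the difference was 4.29 ± 0.11 (SE), adjusted p = 4.37e-33. The lowest liver was HL replicate 2, the one with *Xist* and no *Eif2s3y*, and the other HL livers lay at 1.24 to 2.11. *Alas1*, the form of liver and most other tissues, ranged from 1.21 to 2.60 in liver and from -1.67 to -0.24 in colon, and its difference was 2.52 ± 0.13, adjusted p = 3.79e-22. Its second probe gave 2.64 ± 0.14.

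Among the later enzymes *Cpox*, coproporphyrinogen oxidase, stood apart. Its livers ranged from 0.69 to 1.83 and its colons from -2.36 to -1.38, a difference of 3.14 ± 0.086 with adjusted p = 1.26e-32. *Fech*, ferrochelatase, differed by 1.74 ± 0.072 and by 1.69 ± 0.11 on its second probe. *Urod*, uroporphyrinogen decarboxylase, differed by 1.25 ± 0.072, with its lowest liver at 0.86 and its highest colon at 0.22. *Ppox*, protoporphyrinogen oxidase, differed by 0.61 ± 0.062, adjusted p = 4.22e-12, under loess normalization, and by -0.018, adjusted p = 0.828, when each array was only centred on its median. Its liver values, 0.43 to 1.05, overlapped the colon values, -0.12 to 0.54. The 95% interval of the *Cpox* difference, 2.96 to 3.31, lay above those of *Urod*, *Ppox* and *Fech*, and among the members *Ppox* alone gave a difference that turned with the normalization.

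The globin genes lay between these. *Hba-a1*, alpha-globin, ranged from -0.34 to 0.83 in liver and from -2.73 to -1.21 in colon, and the difference was 2.45 ± 0.12, adjusted p = 2.04e-22. The 4 beta-globin probes of *Hbb-bt* differed by 2.64 to 3.00. *Slc4a1*, band 3, was the dimmest member, with a median Cy3 signal before normalization of 130.5 in liver and 146 in colon. Its log2 ratio was higher in liver by 0.92 ± 0.071, adjusted p = 1.07e-15, a value that fell to 0.38 with median centring, under the fold limit, so that its call ended. Of the raw signals those of *Ppox*, 592 in liver and 819 in colon, also ran against the normalized ratio, and the part of the normalization in both differences was not tested further.

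**Figure D2:**
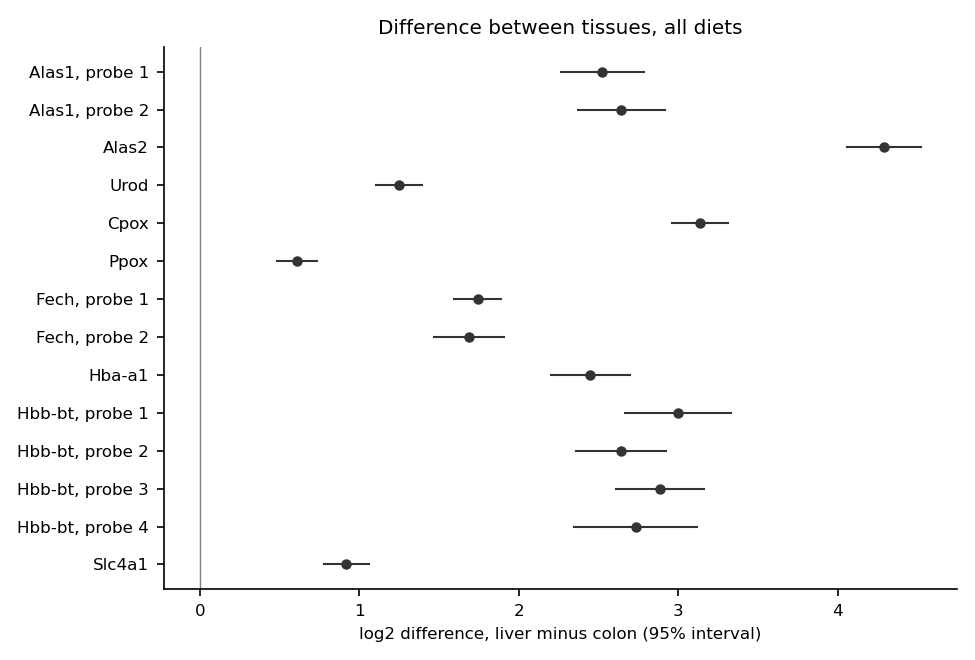
Log2 difference of liver minus colon (horizontal axis) with its 95% interval for each of the 10 member probes and the 4 *Hbb-bt* probes (vertical axis), probe 1 being the brightest of a gene. All intervals lie right of 0, *Alas2* at 4.29 and *Ppox* at 0.61 being the ends of the range.

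Other enzymes of the pathway were also higher in liver. *Alad* and *Uros*, which act between *Alas1* and *Urod*, were both called higher in liver, by 2.04 and 1.24. Of 15 genes that break down or move heme 11 were called higher in liver and 1 lower, with a median difference of 0.76. The leading ones were *Hpx* (hemopexin, the heme carrier of plasma) at 7.79, *Hp* (haptoglobin) at 6.16, *Hebp1* at 4.55 and *Slc46a1*, a transporter of folate and heme, at 2.35. The lower one was the heme exporter *Flvcr1* at -1.04, named after its value was seen. Of 9 genes known to act on *Alas1* or its protein 4 were called higher in liver, among them *Nr1i3* (the receptor CAR) at 4.09 and the protease subunit *Clpx* at 1.76, and 1 lower, *Ppargc1a* at -1.83.

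Fewer of the other red cell genes were called. Of 23 erythroid genes with a probe, 5 were called higher in liver and 1 lower, with a median difference of 0.16. The factor *Klf1* (1.74) and the receptor *Epor* (1.21) were higher, and so was the mitochondrial carrier *Slc25a38* (0.87), along with *Icam4* (0.98) and *Slc25a37* (0.83), which were named after their values were seen, whereas *Car1*, which colon epithelium also expresses, was lower by 5.29 on the log2 scale. The red cell membrane genes *Epb42*, *Rhag* and *Rhd* were not well above background on any array of either tissue. The log2 of the summed Cy3 signal of the list, before normalization, was 12.4 to 13.6 in liver and 17.3 to 18.3 in colon. The colon sum includes *Car1*. Among the other globins the embryonic *Hba-x* was not well above background on any array, *Hbb-y* was higher in liver by 1.11, and the share of blood in each tissue was not tested.

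The diet comparisons ask whether the diet of the dam or of the pup altered these genes. No probe of the array was called in the liver (0% of 41171 probes) in any of the 6 comparisons of 2 groups or the 3 factorial contrasts, nor in the colon (0% of 41173 probes), with limma at a fold over 1.5 and an adjusted p under 0.05. At the same limits the paper reported differing probes in liver, most of them in HH *vs.* LH, and none in colon. The source of this difference was not tested. No member was called here, and the values that follow are unadjusted results set beside the share of all probes that reached the same p. In HH *vs.* LH livers, where 12% of all probes had an unadjusted p under 0.05, this was so for 4 of 10 member probes and 4 of 4 *Hbb-bt* probes. On the side higher in LH, 5.82% of all probes, lay 3 member probes, those of *Cpox* and *Fech*, and on the side lower in LH, 6.14% of all probes, lay *Hba-a1* and the 4 *Hbb-bt* probes. Probes of 1 gene and genes of the same cells are not independent of each other.

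The globin values were lowest in LH livers. *Hba-a1* measured 0.015, 0.36, 0.64, 0.67 and 0.69 in the 5 HH livers, with HH replicate 2 the lowest of them. The LH livers ranged from -0.34 to 0.21 with a median of 0.027, the HL livers from -0.047 to 0.76 with a median of 0.32, and the LL livers from 0.27 to 0.83 with a median of 0.58. Only 1 of the HH livers fell within the LH range. The difference of LH from HH was -0.50 ± 0.14 (SE; 95% interval -0.79 to -0.20), unadjusted p = 0.00203 and adjusted p = 0.23.

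The beta-globin probes were lower too. The brightest *Hbb-bt* probe measured 0.12, 0.71, 0.72, 0.87 and 0.93 in the HH livers and -0.47 to 0.51 in the LH livers, with a median of 0.072. LH was lower on the 4 probes by 0.63 to 1.16 on the log2 scale, with adjusted p-values of 0.188 to 0.254. The groups did not overlap on 1 of the 4 probes, whose LH values ended at 0.16 and whose HH values began at 0.68, where 1.55% of all probes showed no overlap. Each of the 6 liver slides held 1 array of each group, the HH animal with 2 arrays being on slides 3 and 6. With each array set against the LH array of its own slide, LH minus HH ranged from -0.97 to -0.0002 for *Hba-a1* and from -1.33 to -0.22 for *Hbb-bt*, so 1 slide showed almost no *Hba-a1* difference. With slide as a block, this animal's average being placed on slide 3, the differences were -0.51 and -0.65 with adjusted p-values of 0.152 and 0.181. With no block, leaving out HH replicate 2 gave -0.61 and -0.76, and leaving out LH replicate 1 gave -0.43 and -0.53.

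**Figure D3:**
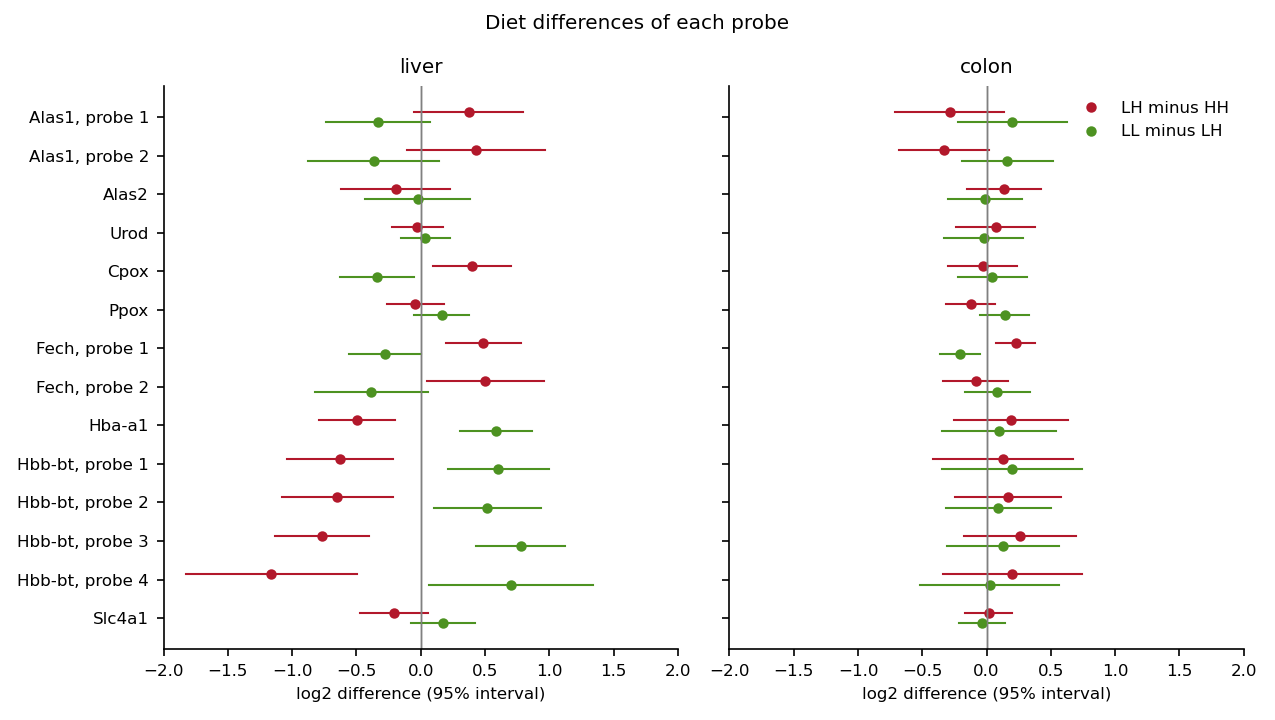
Log2 differences of LH minus HH (red) and of LL minus LH (green) with 95% intervals (horizontal axes) for every member probe and *Hbb-bt* probe (vertical axis) in liver (left) and colon (right). In liver the globin probes lie left of 0 for LH minus HH and right of 0 for LL minus LH, *Cpox* and *Fech* lie on the opposite sides, and in colon most intervals span 0.

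*Hba-a1*, *Hbb-bt* and *Cpox* also differed between LL and LH livers at an unadjusted p under 0.05, and *Fech* did not reach it. There 2 of 10 member probes and 4 of 4 *Hbb-bt* probes had such a p, as did 6.37% of all probes, 3.2% being higher in LL and 3.17% lower. *Hba-a1* was higher in LL by 0.58 ± 0.14, with unadjusted p = 0.000272 and adjusted p = 0.769, and its LL values, from 0.27 up, did not overlap the LH values, up to 0.21, as was so for 0.265% of all probes. LL was above LH for this gene on 6 of 6 slides. The 4 *Hbb-bt* probes were higher by 0.52 to 0.78. *Cpox* was lower in LL by 0.34 on the log2 scale, unadjusted p = 0.0235, which became 0.0778 with median centring. The comparisons of LH with HH and with LL share the LH livers, so their opposite signs are not independent of each other. The comparison of LH with HL, the factorial contrasts and the tissue differences of the diet effects below also hold these livers. They are not separate findings.

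LH livers were also below HL livers for the globins. *Hba-a1* differed by -0.36 (unadjusted p = 0.014) and the *Hbb-bt* probes by -0.66 to -0.52, with adjusted p-values of 1, where 1.74% of all probes had an unadjusted p under 0.05. The globins of HL and LL livers reached that p against HH on 0 probes, and LL against HL likewise gave 0 of 10 member probes and 0 of 4 *Hbb-bt* probes. The share of all probes was 4.37% for HL *vs.* HH, 3.43% for LL *vs.* HH and 3.07% for LL *vs.* HL. The *Hba-a1* means were 0.47 in HH, 0.34 in HL and 0.56 in LL livers, and -0.021 in LH livers.

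*Cpox* and *Fech*, late in the pathway, were higher in LH livers. *Cpox* measured 0.69, 0.78, 1.14, 1.16 and 1.22 in HH livers, and 1.20 to 1.61 in LH livers with a median of 1.39. All but 1 of the HH livers lay below the lowest LH liver, and the difference was 0.40 ± 0.15, unadjusted p = 0.0118 and adjusted p = 0.289. *Fech* measured 1.09, 1.22, 1.29, 1.54 and 1.72 in HH livers and 1.41 to 2.11 in LH livers with a median of 1.94. Its difference was 0.49 ± 0.14, unadjusted p = 0.0023 and adjusted p = 0.236. Its second probe gave 0.50 ± 0.22, adjusted p = 0.372, although the 2 probes hardly followed each other from mouse to mouse within groups, with r = 0.061 over 23 livers. Among the member probes only the brighter *Fech* probe reached an unadjusted p under 0.05 in HL *vs.* HH livers, at 0.37 (unadjusted p = 0.0161 and adjusted p = 0.953).

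The other members did not reach that p. *Alas1* ranged from 1.32 to 1.96 in HH livers and from 1.21 to 2.34 in LH livers, with a difference of 0.37 ± 0.20, unadjusted p = 0.082, and one of 0.43 ± 0.26 on the second probe. *Alas2* differed by -0.19 (95% interval -0.62 to 0.23) and *Slc4a1* by -0.21 (-0.47 to 0.055). *Urod* and *Ppox* differed by -0.026 and -0.043, with intervals of -0.23 to 0.18 and -0.26 to 0.18. Changes of the size seen for *Fech* thus lay outside the intervals of *Urod* and *Ppox*, while for *Alas1* they lay within.

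The factorial contrasts put dam and pup diet in one model. Their interaction in the liver is the difference of the pup diet effect between L dams and H dams, and 11.3% of all probes had an unadjusted p under 0.05, against 5 of 10 member probes and 4 of 4 *Hbb-bt* probes. It was 0.72 ± 0.20 for *Hba-a1* (adjusted p = 0.29), 0.65 to 1.21 for the *Hbb-bt* probes, -0.63 for *Cpox*, -0.65 and -0.69 for *Fech* and 0.37 for *Slc4a1*. The *Slc4a1* value had an unadjusted p of 0.0445, which became 0.0778 with slide as a block and 0.0605 without the mouse with *Xist* and no *Eif2s3y*, and the value fell to 0.15 (unadjusted p = 0.486) without the repair of the local background. The average effect of the dam diet (4.16% of all probes) reached that p for 0 of 10 member probes and for 4 of 4 *Hbb-bt* probes, at -0.56 to -0.29. The average effect of the pup diet (1.35% of all probes) did so for *Hba-a1*, at 0.22, and for 1 *Hbb-bt* probe, at 0.30.

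In the colon the members gave fewer such values. These fits left slide out, although colon arrays of a slide deviated together, with a median r of 0.359 (other slides -0.13). Counts at this p were not made with slide as a block. There *Fech* in LH *vs.* HH colons had an unadjusted limma p of 0.00165 and an adjusted p of 0.399. *Fech* measured -0.25 to -0.15 in HH colons and -0.14 to 0.17 in LH colons, so the groups just failed to overlap, as on 0.177% of all probes. This was a difference of 0.23 ± 0.075, unadjusted p = 0.00559 and adjusted p = 1. Its second probe went the other way at -0.086. *Fech* was the 1 of 10 member probes with an unadjusted p under 0.05 in LH *vs.* HH (3.25% of all probes), in LL *vs.* LH (2.79%) and in the interaction (1.79%). The second *Alas1* probe was the 1 in LH *vs.* HL (2.93%), at -0.43, and for the dam diet (2.11%), at -0.30. In HL *vs.* HH (1.46%), LL *vs.* HH (1.71%), LL *vs.* HL (1.02%) and for the pup diet (2.03%) there were 0 of 10, and *Hbb-bt* had 0 of 4 in each colon contrast. *Hba-a1* differed between LH and HH colons by 0.19 (95% interval -0.26 to 0.63).

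The dam diet effect was set against itself in the 2 tissues. Its difference, liver minus colon, was -0.36 (unadjusted p = 0.0461) for *Hba-a1*, -0.81 to -0.50 for the *Hbb-bt* probes and 0.44 (unadjusted p = 0.0266) for the second *Alas1* probe, each with an adjusted p of 0.857. These were 2 of 10 member probes and 4 of 4 *Hbb-bt* probes, where 5.69% of all probes had an unadjusted p under 0.05. For the pup diet there were 0 of 10 and 0 of 4, where 2.98% of all probes did, and 0% of all probes passed the call for either difference.

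Markers of other cells were read beside the globin values of LH livers. Of all probes 12% had an unadjusted p under 0.05 in HH *vs.* LH livers, 5.82% being higher in LH and 6.14% lower. Of 23 erythroid genes 11 were well above background on all liver arrays and 9 on none, so the latter could hardly show a change. Of the 23, 1 had an unadjusted p under 0.05 in HH *vs.* LH, *Klf1*, which was higher in LH at 0.45 (adjusted p = 0.276), followed by *Car1* at 0.21. The median difference of the list was -0.029, against -0.0081 for all probes. The log2 of its summed Cy3 signal, before normalization, was 12.4 to 13.3 in HH livers and 12.8 to 13.5 in LH livers. Among the other globins *Hbb-y* was lower in LH by 0.38 on the log2 scale, unadjusted p = 0.0132. Whether its probe also takes up adult beta-globin RNA was not tested. Of 10 neutrophil genes 3 were lower in LH and 1 higher at an unadjusted p under 0.05, where *Retnlg* at -0.45 and *Csf3r* at 0.53 were named after their values were seen. *S100a8* and *S100a9*, the calcium-binding proteins abundant in neutrophils, differed by -1.29 and -1.46, with adjusted p-values of 0.18 and 0.2, while the granule gene *Elane* and *Ngp* were not well above background on any liver array. The log2 of the summed signal of this list, also before normalization, was 10.5 to 12.4 in HH livers and 10.3 to 11.0 in LH livers. Such sums carry the brightness of each array and do not measure a difference between the groups. For the genes of heme breakdown and transport the sum spanned 17.6 to 19.1 within HH livers.

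Of 10 lymphocyte genes 4 were lower in LH livers at that p, led by *Ptprc* at -0.61 and *Ms4a1* at -0.52, with *Cd79b* and *Lck* at -0.37 and -0.26, the latter 2 named after their values were seen, and of 8 platelet genes 0 reached that p, with *Pf4* at -0.44 and *Itga2b* at 0.12. Of 8 hepatocyte genes 2 were higher, *Fgb* at 0.52 and *Cyp2e1* at 0.83, and of 10 genes of colon epithelium and muscle 0. At that p 5.82% of all probes were higher in LH livers and 6.14% lower. The part of these cells, and of blood held in the tissue, in the globin values was not tested.

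Neither *Alad* nor *Uros* reached that p in the same comparison. They differed between LH and HH livers by 0.13 and 0.039. Of 15 genes of heme breakdown and transport 2 were higher and 2 lower in LH at an unadjusted p under 0.05. The shares of all probes were 5.82% and 6.14%. The lowest p belonged to *Hmox1*, the inducible heme oxygenase, at -0.52 (adjusted p = 0.289), and *Hmox2*, the constitutive one, was at 0.20. The others were *Abcg2* at 0.50 and *Flvcr1* at -0.30, named after their values were seen. Of 9 genes that act on *Alas1* 0 reached that p, with the clock repressor *Nr1d1* at 0.54 and *Lonp1* at 0.18.

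**Figure D4:**
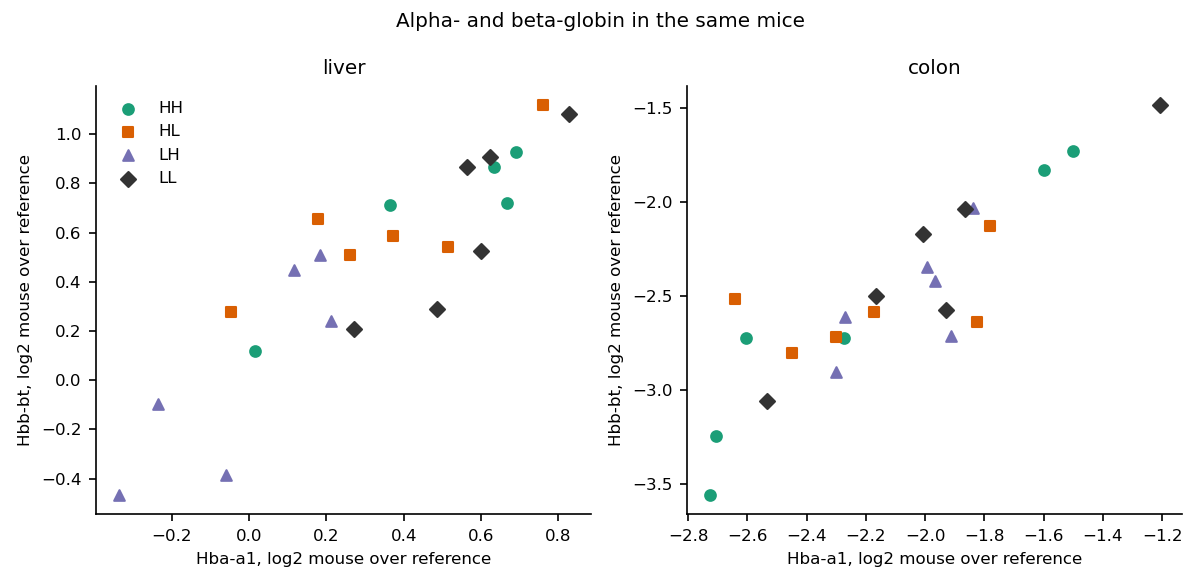
*Hbb-bt* (vertical axes) against *Hba-a1* (horizontal axes), both as log2 mouse over reference, in each liver (left) and colon (right), with 1 symbol per diet group. The points rise together in both tissues, and the 3 lowest *Hbb-bt* livers are LH mice.

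The members were also compared from mouse to mouse, as deviations from the group mean, in 36 pairs per tissue. *Hba-a1* and *Hbb-bt* varied together in both tissues. In liver Pearson's r was 0.833 and Spearman's rho 0.82 over 23 mice, with adjusted permutation p-values of 0.00036 and 0.00096, and r was 0.793 without the 2 farthest mice and 0.903 with slide means removed. In colon r was 0.868 and rho 0.792 over 24 mice, with the same adjusted permutation p-values, and r was 0.80 without the 2 farthest mice and 0.916 with slide means removed. The unadjusted permutation p of 1e-05 for r in both tissues is the smallest that the 100000 permutations can give. No other pair passed in liver, so 1 of 36 did.

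In colon 4 of 36 pairs had an adjusted permutation p under 0.05, the globins included, before slides were taken into account. *Cpox* and *Slc4a1* ran opposite to each other, with r = -0.825 and rho = -0.781 (adjusted permutation p = 0.0012 and 0.00096). Their r was -0.718 without the 2 farthest mice and -0.748 with slide means removed. The *Slc4a1* probe was dim, with a median Cy3 signal before normalization of 146 in colon, and the part of background in this pair was not tested. *Alas1* and *Urod* gave r = -0.698 and rho = -0.666 (adjusted permutation p = 0.0036 and 0.0112) and -0.693 without the 2 farthest mice, but only -0.225 with slide means removed. *Alas2* and *Urod* gave r = 0.683 and rho = 0.673 (adjusted permutation p = 0.0255 and 0.0314), 0.618 without the 2 farthest mice and 0.506 with slide means removed. *Alas1* in colon followed the slide, with the 4 mice of slide 7 between -1.67 and -1.08 and the 4 mice of slide 11 between -0.69 and -0.24, and each slide held 1 mouse of each diet group. Other colon pairs, named after their values were seen, changed when slide means were removed, and none of those named here had passed the test. For *Alas2* r rose from 0.253 to 0.924 with *Hba-a1* and from 0.371 to 0.837 with *Hbb-bt*, and for *Urod* with *Ppox* it turned from -0.433 to 0.659. The values with slide means removed are a description, with no test.

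The genes whose values most resembled those of *Hba-a1* and *Alas1* over mice are given as a description, among genes well above background. In liver, among 13726 genes over 23 mice, *Hba-a1* was followed by *Hbb-bt* (r = 0.83), *Orm2* (0.70), *Csf2rb* (0.65), *Drc7* (0.64) and *Zfp41* (0.64). *Alas1* was followed by *Zfp316* (0.74), *Usp2* (0.73), *Osbpl2* (0.71), *Csad* (0.71) and *Rabggta* (0.69). In colon, among 15287 genes over 24 mice, *Hba-a1* was followed by *Hbb-bt* (0.87), *Qk* (0.86), *Cldn5* (0.85), *Ankrd44* (0.84) and *Hmox1* (0.84). Among the genes most like *Alas1* there were *Traf7* (0.95), *Rab3ip* (0.93), *Anxa7* (0.92) and *Slc9a3r1* (0.92). These mice share slides and the values share a reference, so the order of such genes has no test.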

How the data were processed

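RNA was hybridised on 48 Agilent 2-colour arrays, 4 to a slide. The authors deposited, per array, unnormalized median intensity values of spots and of their surrounding background for Cy3 and Cy5, and the processed intensity of Feature Extraction 10.10.1.1. They also deposited a table of log2 ratios, which matched loess without background correction with the reference over the mouse, so its sign was turned. The submitters' processing notes name limma and R 3.0.2.

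Here R 4.3.3 with limma 3.58.1 was used. Where the local background reached the spot it was replaced by that array's median background, then normexp (offset 50) and global loess were applied. Without this step the spread of ratios was compressed on some arrays, to an SD as low as 0.55 in liver against 0.84 with it. Flagged spots (102 to 261 per array) were left out and spots of a probe averaged. The 2 arrays of one HH animal, whose deviations correlated at 0.805 against at most 0.261 for other HH pairs, were averaged. Names came from the RefSeq gene table for 27050 of 41174 probes.

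Each tissue was fitted with limma as 4 groups, and both together as 8 groups with slide as a random block (correlation 0.207). Slides, named in the labels, held 1 array of each diet group, and arrays of a slide deviated from their group means together with a median r of 0.359 in colon and 0.0992 in liver (other slides -0.13 and -0.0296). Benjamini-Hochberg adjustment ran over all probes. The probe with the highest mean signal stands for a gene. Members, all probes, were named, and from each gene list at most 4 called genes or the 2 with the lowest p. The members and lists were chosen with earlier results of these data known. Correlations used 100000 permutations within diet groups. The model and the permutations were tested on simulated data. Alternatives were no background correction, normexp with offset 0 or without the repair, median centring, processed signals, the deposited table, Cy3 alone, a filter on dim probes, slide as a block, the 2 arrays as 2 mice, no fold limit, and leaving out mice with *Xist* or each mouse. The number of arrays limits the precision. Some genes of these lists are not reported here.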

Additional observations from a re-analysis of the deposited data

Results flagged for a closer look

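Of 72 groups of a gene, a tissue and a diet, 3 held a mouse that stood apart from the rest of its group by Dixon's criterion, which chance meets in about 1 in 20 groups. In HH livers replicate 2 was at 0.12 for *Hbb-bt*, with the other 4 mice at 0.71 to 0.93. The same mouse was at 1.38 for *Urod*, with the others at 0.93 to 1.05. In HH colons replicate 5 was at 0.43 for *Ppox*, with the others at 0.11 to 0.23.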

How the results depend on the processing

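The count of members called was 0 in every diet contrast of either tissue under all alternatives, and 8 to 10 for liver against colon. Only *Ppox*, liver minus colon, changed direction, to -0.018 with median centring, where it and *Slc4a1*, at 0.38, lost their calls and *Urod* fell to 0.83. The cause was not tested. In HH *vs.* LH livers 3 to 4 member probes had an unadjusted p under 0.05 under the processing alternatives, and 3 to 6 with each mouse left out. Over the processing alternatives *Hba-a1* ranged from -0.52 to -0.41 (adjusted p 0.0997 to 0.384) and *Hbb-bt* from -0.70 to -0.54 (0.107 to 0.35). *Cpox* ranged from 0.35 to 0.54 (0.0884 to 0.423) and *Fech* from 0.42 to 0.63 (0.0587 to 0.35). The lowest adjusted p of each came with slide as a block and both arrays of one HH animal kept, which counts it as 2. With that animal averaged, the block gave adjusted limma p-values of 0.152, 0.181, 0.217 and 0.122. Some unadjusted limma p-values under 0.05 rose above it under an alternative. They reached 0.0778 for *Cpox* in LL *vs.* LH livers, 0.0796 for *Hba-a1* in LH *vs.* HL livers and 0.0901 for *Fech* in LH *vs.* HH colons. In the liver interaction they reached 0.0554 for *Hbb-bt* and 0.486 for *Slc4a1*. With each mouse left out *Hba-a1* ranged from -0.61 to -0.43 and *Hbb-bt* from -0.76 to -0.53. Leaving out the mice with *Xist* moved none of these calls. With slide as the replicate block *Hba-a1* was at -0.51 and *Hbb-bt* at -0.65, and at -0.48 and -0.63 with both arrays of one HH animal kept on their own slides, an alternative chosen after seeing the data that counts the animal as 2. The block changed no call. A ratio to the reference on a dim spot such as that of *Slc4a1* is limited by its background.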
